A study of Rattus norvegicus with 15 samples.

Results

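The collagen genes are the rows of a rat lung expression table whose gene symbol has the form Col, a number, the letter a and a number, such as Col1a1. There were 42 of them among the 22250 genes measured. Of these, 29 reached 1 FPKM in at least 5 of the 15 libraries and were tested. FPKM is the number of sequenced fragments of a gene, scaled to its length and to the fragments of the library, so levels of different genes can be set side by side. The 42 comprised 10 chains of fibrillar collagens (7 tested), 6 chains of type IV collagen of basement membranes (all 6 tested) and 26 others (16 tested). Col1a2, Col6a3 and Col21a1 had no row under those names and were not analysed here.

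RNA sequencing was done on lung tissue of wild-type rats in 3 groups of 5 libraries. The SJY group received LPS, a cell wall component of Gram-negative bacteria, into the trachea and Sang Ju Yin, a Chinese herbal formula, into the stomach. The ALI (acute lung injury) group received the tracheal LPS without the formula, and the control group was normal rats. The labels give no strain, age, dose or interval after LPS, name no group given a vehicle, and do not say whether a library is 1 animal or a pool, so the p-values measure the spread between these libraries. Libraries are listed throughout in the order SJY 1, 3, 4, 5 and 6, ALI 1 to 5 and control 4 to 8, the numbers the labels give them.

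Collagens are secreted proteins whose alpha chains wind around one another into a triple helix. Fibrillar collagens build the cables that give the alveolar wall, airways and vessels their tensile strength, and are made mostly by fibroblasts. Type IV collagen forms the sheet-like network of the basement membrane, which in the alveolus lies between epithelium and capillary endothelium. The other collagens sit on fibril surfaces, form fine beaded filaments between cells and matrix, anchor epithelium, or span the cell membrane. Because the tissue was whole lung, fewer cells of a type and less RNA per cell cannot be told apart.

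One library stood apart. ALI 1 had the lowest level of its group in 28 of the 29 tested collagens, whereas it was lowest in 61.2% of all tested genes. Its 42 collagens summed to 363 FPKM, against 1054 to 1450 FPKM in the other 4 ALI libraries. Its 13 mitochondrial genes took 37.7% of all FPKM, against 8.31 to 14.1% in ALI 2 to 5, and its neutrophil markers were the highest of the group. Among the SJY libraries, SJY 1 was lowest in 17 of the 29 collagens and in 53.0% of all genes, with 17.1% mitochondrial FPKM. Total FPKM per library ran from 495244 to 700068, and the number of reads behind a value is unknown. Calls and list counts that ALI 1 moves are given with and without it.

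The 42 genes summed to 935.9 ± 71.9 FPKM in SJY lungs, 1124 ± 453 FPKM in ALI lungs and 924 ± 122 FPKM in control lungs (SD, n = 5 each). Without ALI 1 the ALI sum was 1314 ± 177 FPKM (n = 4), and its lowest library, at 1054 FPKM, lay above the highest SJY library, at 1015 FPKM. Col3a1 was the most abundant collagen by mean FPKM in SJY and ALI lungs, followed by Col4a1. In control lungs Col3a1 and Col6a1 were level, at 122 ± 26.3 and 121 ± 19.1 FPKM, and Col6a1 was the higher in control 5, 7 and 8. Fibrillar chains made up 38.5 ± 4.12% of collagen FPKM in SJY lungs, 38.3 ± 5.12% in ALI lungs and 23.8 ± 4.19% in control lungs. The shares of SJY libraries, from 33.0 to 43.6%, all lay above those of control libraries, from 20.04 to 30.9%. ALI 2 to 5, from 39.3 to 41.9%, lay above the control range as well, and ALI 1, at 29.3%, lay inside it. The type IV share overlapped between the groups, at 28.9 ± 2.19% in SJY, 34.4 ± 10.5% in ALI and 31.2 ± 3.47% in control lungs. The remaining collagens took 32.6 ± 2.42% in SJY, 27.4 ± 5.44% in ALI and 45.0 ± 1.48% in control lungs, and here every SJY and ALI library, at most 34.8%, lay below every control library, at least 43.6%.

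**Figure D1:**
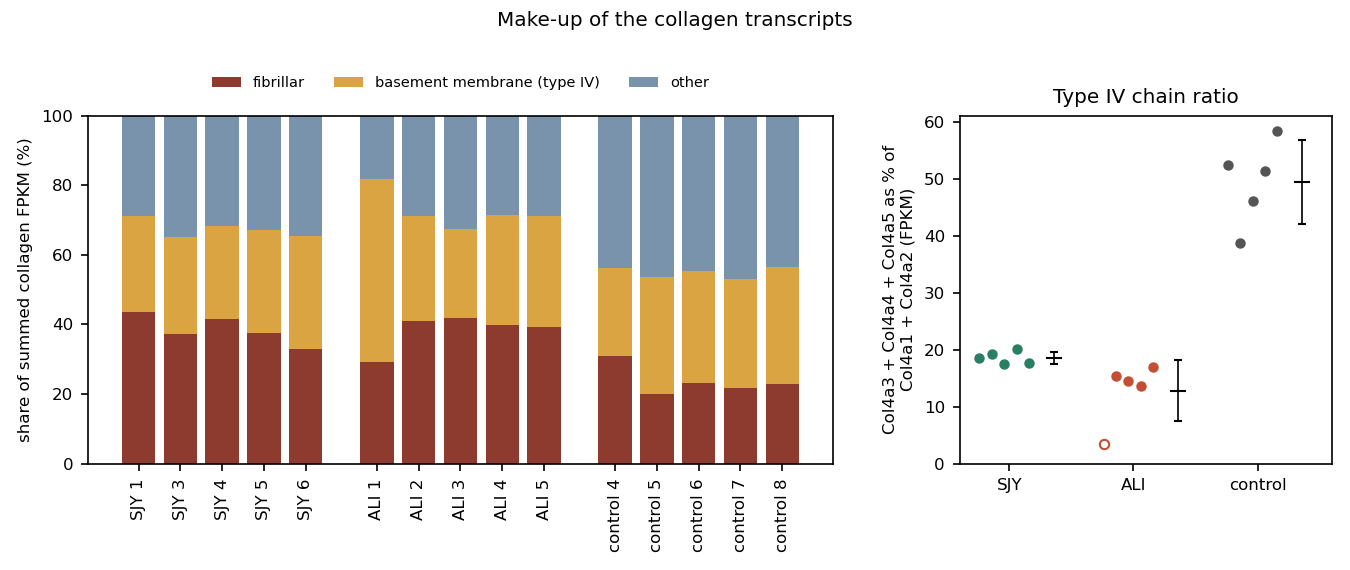
Left: share of the summed FPKM of the 42 collagen genes taken by fibrillar, type IV and other collagens (percent, stacked bars) in each library. Right: summed FPKM of Col4a3, Col4a4 and Col4a5 as a percentage of that of Col4a1 and Col4a2, 1 point per library, with mean ± SD (n = 5) and ALI 1 as an open circle; SJY libraries lie between 17.5 and 20.1%, ALI libraries between 3.44 and 16.99% and control libraries between 38.7 and 58.3%.

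The effect of LPS was asked by setting ALI against control lungs. Of the 29 tested collagens, 3 were higher in ALI lungs (Col1a1, Col3a1 and Col4a1) and 9 were lower (Col6a5, Col6a4, Col4a3, Col4a4, Col12a1, Col13a1, Col27a1, Col8a2 and Col20a1). Calls are limma tests on log2(FPKM + 1) at a Benjamini-Hochberg adjusted p under 0.05 over all 13457 tested genes, of which 8.02% were called higher and 9.56% lower. All 5 ALI libraries lay below all 5 control libraries for 8 collagens, those called lower other than Col20a1, as they did for 6.73% of all genes. No collagen had all ALI libraries above all control libraries, against 6.17% of all genes. By class, 2 of 7 fibrillar chains were higher and 1 lower, 1 of 6 type IV chains was higher and 2 lower, and 0 of 16 other collagens were higher and 6 lower. The class medians on the log2 scale were −0.17 for fibrillar, −0.88 for type IV and −0.75 for other collagens, and 0.21, −0.52 and −0.26 without ALI 1. The median log2 fold change of the 29 was −0.54, beside −0.12 for all genes. Without ALI 1, 6 collagens were higher, Col4a2, Col5a3 and Col18a1 being added, and 8 were lower, Col20a1 being lost. Of all genes 9.11% were then called higher and 7.89% lower, and the medians were −0.22 for the collagens and −0.02 for all genes. With libraries rescaled to equal FPKM sums outside the mitochondrial genes, 3 collagens were higher and 10 lower in ALI lungs, beside 953 and 1732 of all genes, against 1079 and 1287 as deposited.

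SJY lungs, which had LPS and the formula, were set against the same control libraries. Col1a1 and Col3a1 were higher, 2 of the 29, where 14.6% of all genes were called higher. Lower were 6 of the 29 (Col6a5, Col6a4, Col4a3, Col12a1, Col13a1 and Col8a2), where 18.1% of all genes were called lower. The 8 collagens called in SJY lungs were all among the 12 called in ALI lungs. The 2 comparisons share their control libraries and 1 estimate of spread, so this overlap is no independent evidence. All SJY libraries lay above all control libraries for 2 collagens, Col1a1 and Col3a1, and for 11.8% of all genes. They lay below them for 10 collagens, namely the 6 called lower and Col4a4, Col4a5, Col20a1 and Col6a6, and for 15.9% of all genes. By class, 2 of 7 fibrillar chains were higher and 0 lower, 0 of 6 type IV chains were higher and 1 lower, and 0 of 16 other collagens were higher and 5 lower. The class medians were −0.13 for fibrillar, −0.78 for type IV and −0.56 for other collagens. The median log2 fold change was −0.33 for the collagens and −0.11 for all genes. With equal sums outside the mitochondrial genes, 2 collagens were higher and 10 lower, beside 1352 and 3758 of all genes, against 1959 and 2431 as deposited. When ALI 1 was left out of the fit, which leaves these fold changes as they are, 4 collagens were higher and 13 lower, beside 17.8% and 26.5% of all genes.

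**Figure D2:**
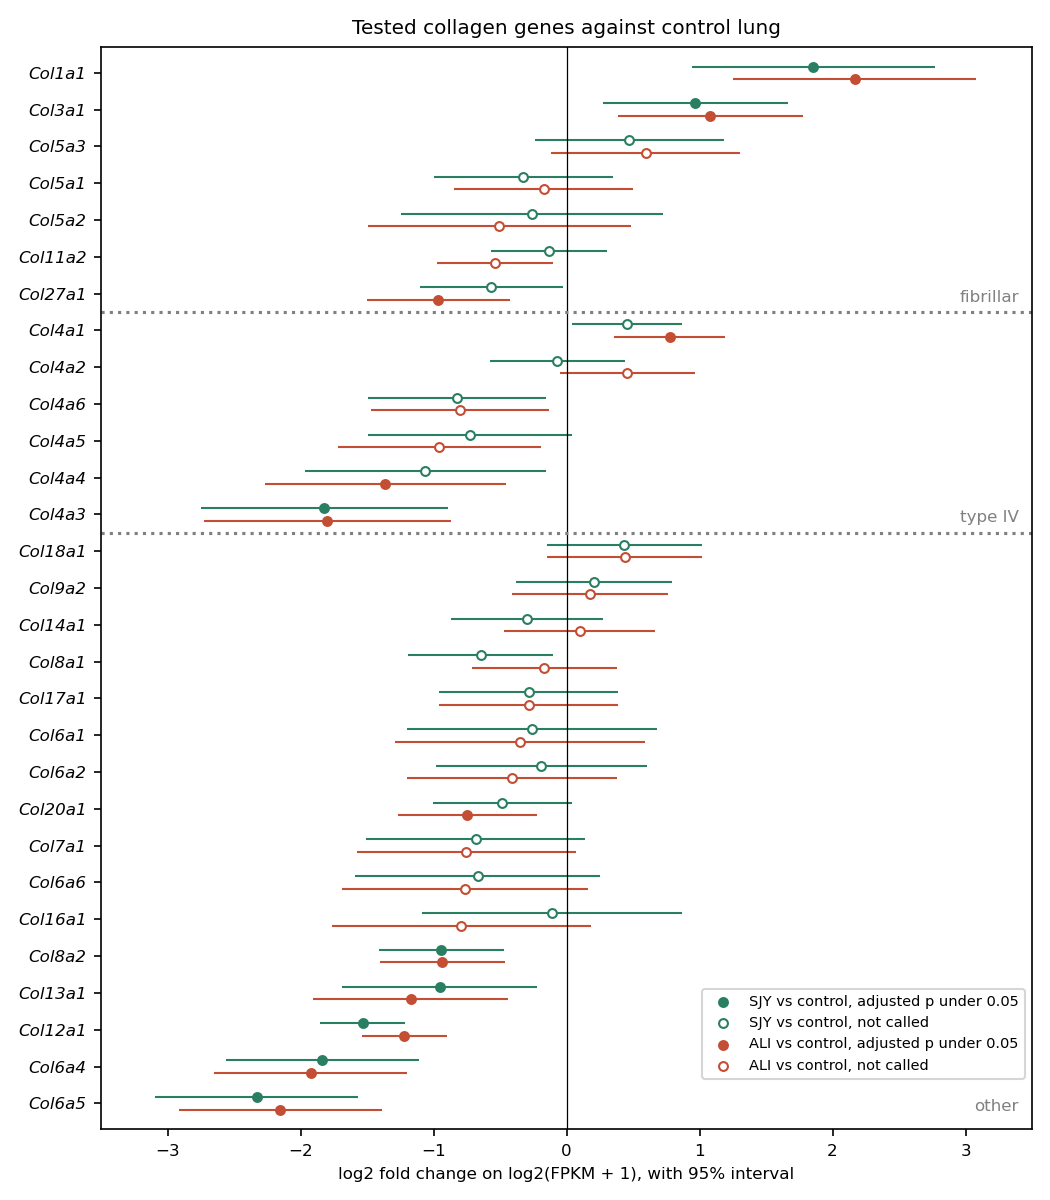
log2 fold change against control lung on the log2(FPKM + 1) scale (x axis, 95% intervals as lines) of the 29 tested collagens (rows) in SJY and ALI lungs, filled where the adjusted p was under 0.05. Col1a1 lies farthest to the right, at 1.86 in SJY and 2.17 in ALI lungs, and Col6a5 farthest to the left, at −2.33 in SJY and −2.15 in ALI lungs.

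Among fibrillar chains the interstitial collagens Col1a1 and Col3a1 rose. Col1a1 (ENSRNOG00000003897), the main chain of type I collagen, had 59.2, 58.4, 65.5, 55.00 and 42.1 FPKM in SJY libraries, 13.9, 107, 101, 97.5 and 103 FPKM in ALI libraries and 20.9, 13.3, 18.5, 12.7 and 10.03 FPKM in control libraries. All SJY libraries and ALI 2 to 5 stood above the highest control library, and ALI 1 stood inside the control range. The log2 fold change against control was 1.86 (SE 0.43, adjusted p = 0.00479) in SJY and 2.17 (SE 0.43, adjusted p = 0.00339) in ALI lungs. Without ALI 1 the ALI change was 2.72. Both calls held when any 1 library was left out.

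Col3a1 (ENSRNOG00000003357), the chain of type III collagen found in fine fibrils of vessel walls and alveolar septa, had 264, 237, 255, 248 and 184 FPKM in SJY libraries, 80.9, 368, 276, 354 and 367 FPKM in ALI libraries and 159, 109.6, 141, 102 and 99.4 FPKM in control libraries. Here too SJY libraries and ALI 2 to 5 all exceeded every control library, while ALI 1 was the lowest of all 15. Against control, the log2 fold change was 0.97 (SE 0.33, adjusted p = 0.034) in SJY and 1.08 (SE 0.33, adjusted p = 0.0336) in ALI lungs, and 1.49 in ALI without ALI 1. The ALI call was lost without any 1 of ALI 2, 3, 4 or 5 or control 5, 6, 7 or 8 (log2 fold change 0.95 to 1.14, adjusted p 0.0518 to 0.0777). The SJY call was lost without any 1 of SJY 1, 3, 4 or 5 or control 5, 7 or 8 (0.90 to 0.96, adjusted p 0.0586 to 0.0777). Col3a1 stood at 3.89 to 4.51 times Col1a1 in SJY libraries, 2.73 to 5.80 times in ALI libraries and 7.61 to 9.91 times in control libraries, in FPKM, and every SJY and ALI ratio lay below every control ratio.

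The type V chains, which start type I fibrils and limit their width, were not called together with them. Col5a1 had 6.55, 12.1, 11.97, 13.1 and 10.6 FPKM in SJY libraries, 3.51, 16.98, 13.2, 16.9 and 16.3 FPKM in ALI libraries and 12.2, 16.98, 15.6, 11.2 and 12.5 FPKM in control libraries. Col5a2 had 36.4, 51.04, 48.8, 55.95 and 44.6 FPKM in SJY libraries, 6.29, 66.3, 42.4, 65.9 and 75.5 FPKM in ALI libraries and 57.6, 63.2, 55.4, 54.3 and 52.5 FPKM in control libraries. ALI 1 was far below the rest in both genes. Apart from it, the SJY and ALI ranges each overlapped the control range. For Col5a1, ALI 2 to 5, at least 13.2 FPKM, lay just above the highest SJY library, at 13.1 FPKM. For Col5a2 these groups overlapped. The log2 fold change of Col5a1 was −0.33 (SE 0.32, adjusted p = 0.457) in SJY and −0.17 (SE 0.32, adjusted p = 0.723) in ALI lungs. That of Col5a2 was −0.26 (SE 0.46, adjusted p = 0.695) in SJY and −0.50 (SE 0.46, adjusted p = 0.449) in ALI lungs. Without ALI 1 the ALI values turned positive, at 0.21 for Col5a1 and 0.11 for Col5a2. Col5a3, a further type V chain at 2.88 ± 1.07 FPKM in SJY, 3.58 ± 1.996 FPKM in ALI and 1.72 ± 0.382 FPKM in control lungs, had a log2 fold change of 0.47 in SJY and 0.59 in ALI lungs. It was not called in ALI lungs with all libraries and was called higher there without ALI 1 (0.97) and with array weights (0.91).

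Col27a1 (ENSRNOG00000007657), a fibrillar chain best known from cartilage, went the other way in ALI lungs. It had 1.63, 4.57, 2.54, 3.23 and 3.197 FPKM in SJY libraries, 0.467, 2.14, 2.54, 2.51 and 3.04 FPKM in ALI libraries and 5.04, 5.71, 4.09, 4.86 and 4.42 FPKM in control libraries. Every ALI library was below every control library, whereas the SJY and control ranges met between 4.09 FPKM (control 6) and 4.57 FPKM (SJY 3). This was a log2 fold change of −0.57 (SE 0.25, adjusted p = 0.0963) in SJY and −0.96 (SE 0.25, adjusted p = 0.0168) in ALI lungs, and −0.71 in ALI without ALI 1. The ALI call held when any 1 library was left out, and the SJY change was called, at the same fold change, without ALI 1. Col11a2, a type XI chain, averaged 2.39 ± 0.461 FPKM in SJY, 1.602 ± 0.572 FPKM in ALI and 2.797 ± 0.985 FPKM in control lungs and was not called.

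**Figure D3:**
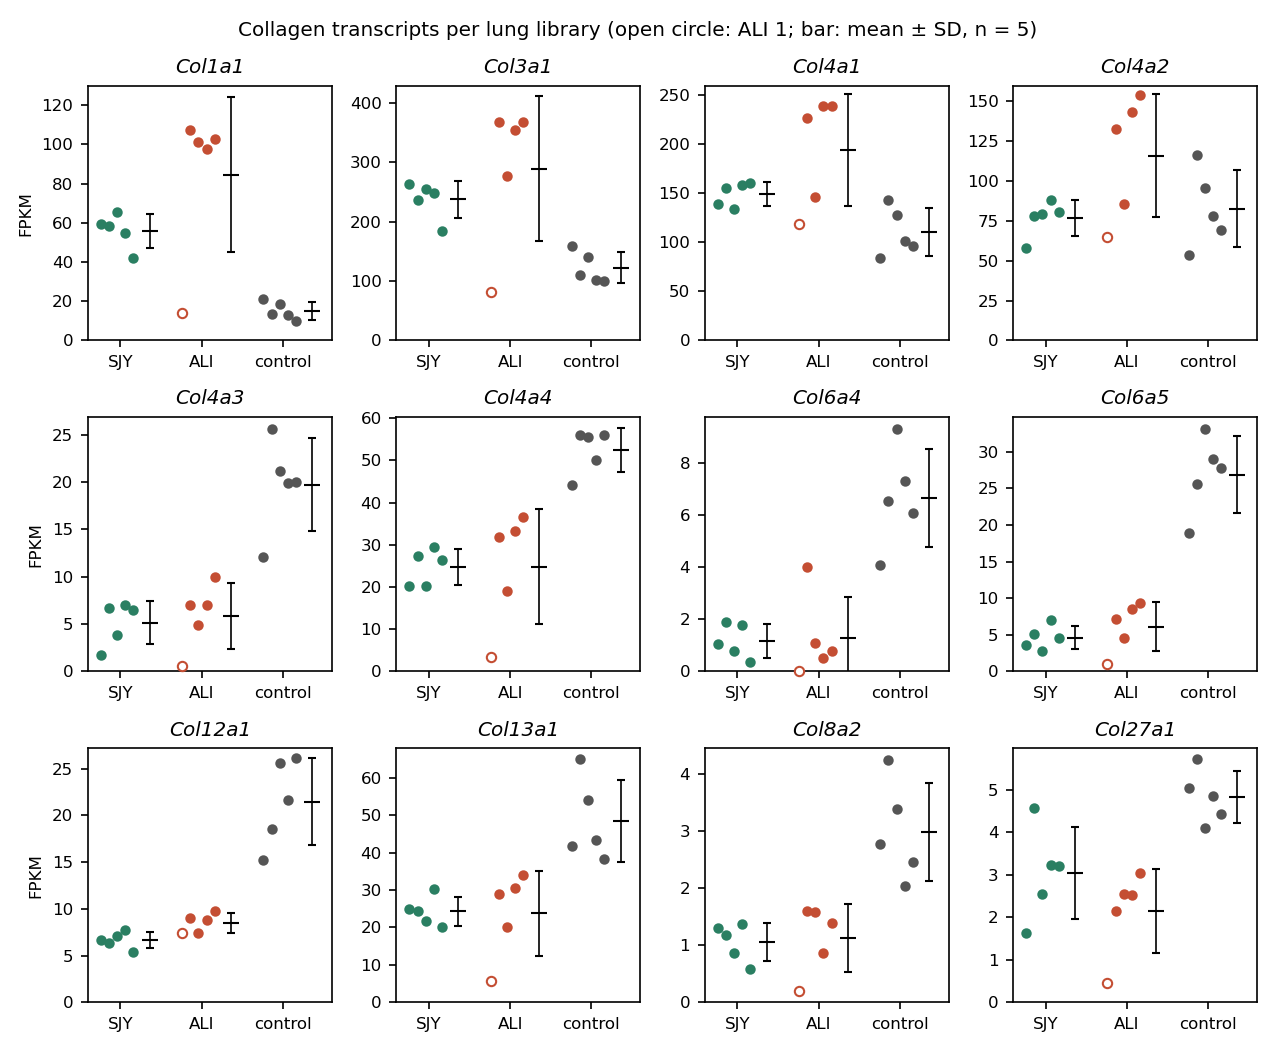
FPKM (y axis, linear, from 0) of 12 collagens in each library of the SJY, ALI and control groups, with mean ± SD (n = 5) and ALI 1 as an open circle. Col1a1 lies at 42.1 to 65.5 FPKM in SJY libraries, 13.9 to 107 FPKM in ALI libraries and 10.0 to 20.9 FPKM in control libraries, and Col6a5 lies at 2.85 to 7.07 FPKM in SJY, 0.994 to 9.40 FPKM in ALI and 18.8 to 33.1 FPKM in control libraries.

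The 6 type IV chains are encoded in head-to-head pairs, and the chains of a pair assemble with each other. In the rat genome build GRCr8 of RefSeq, the annotated starts of Col4a1 and Col4a2 lie 77 bases apart on chromosome 16 and those of Col4a3 and Col4a4 413 bases apart on chromosome 9. Col4a5 and Col4a6 start 1415 bases apart on chromosome X. The stretches upstream of the first 2 pairs, whose starts lie closest together, are shown because 3 of their 4 genes were called in ALI lungs. The 76 bases between Col4a2 and Col4a1, at chr16:84885521-84885596 on the plus strand, and the 250 bases upstream of Col4a3 (chr9:91323740-91323989, plus strand) and of Col4a4 (chr9:91323578-91323827, minus strand) read as follows, with capitals marking the GC box GGGCGG on either strand.
Col4a2 to Col4a1: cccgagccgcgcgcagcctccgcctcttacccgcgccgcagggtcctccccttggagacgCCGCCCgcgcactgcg
Col4a3: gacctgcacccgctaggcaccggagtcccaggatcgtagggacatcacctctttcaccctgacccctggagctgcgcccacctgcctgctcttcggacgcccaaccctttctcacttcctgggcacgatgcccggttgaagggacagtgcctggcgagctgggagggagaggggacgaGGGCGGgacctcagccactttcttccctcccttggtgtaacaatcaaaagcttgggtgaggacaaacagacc
Col4a4: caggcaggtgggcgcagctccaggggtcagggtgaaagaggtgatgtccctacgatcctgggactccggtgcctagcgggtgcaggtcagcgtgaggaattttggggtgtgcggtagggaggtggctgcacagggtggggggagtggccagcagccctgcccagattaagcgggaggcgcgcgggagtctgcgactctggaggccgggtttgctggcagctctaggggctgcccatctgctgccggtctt

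The last 2 stretches share 88 bases, read from opposite strands. The stretch between Col4a2 and Col4a1 held 1 GC box, as did 18.1% of 76-base stretches before all 33465 RefSeq gene starts. Of 250-base stretches, 30.5% held at least 1. Upstream of Col4a3 there was 1 and upstream of Col4a4 none. Neither CCAAT (in 34.0% of 250-base stretches) nor TATAAA (12.9%) stood in any of the 3 stretches on either strand. A match of letters is a description and not a measured site.

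Among type IV chains, Col4a1 rose in ALI lungs and Col4a3 and Col4a4 fell there, with Col4a3 falling in SJY lungs too. Col4a1 and Col4a2 form the network of nearly all basement membranes. Col4a1 (ENSRNOG00000016281) had 139, 156, 134, 159 and 160.5 FPKM in SJY libraries, 119, 227, 146, 239 and 239 FPKM in ALI libraries and 84.1, 143, 128, 101 and 96.4 FPKM in control libraries. Its ALI libraries other than ALI 1 lay above the highest control library, 143 FPKM in control 5. On the log2 scale the change was 0.45 (SE 0.20, adjusted p = 0.0874) in SJY and 0.78 (SE 0.20, adjusted p = 0.0142) in ALI lungs, and 0.94 in ALI without ALI 1. The ALI call held when any 1 library was left out, and the SJY change was called, at the same fold change, when ALI 1 was left out of the fit. Col4a2 had 57.7, 77.96, 79.5, 87.8 and 80.4 FPKM in SJY libraries, 64.7, 132, 85.7, 143 and 154 FPKM in ALI libraries and 53.8, 116, 95.6, 78.2 and 69.5 FPKM in control libraries. These groups overlapped, with a log2 fold change of −0.07 (SE 0.24, adjusted p = 0.844) in SJY and 0.46 (SE 0.24, adjusted p = 0.182) in ALI lungs. Without ALI 1 the ALI change of Col4a2 was 0.65 and was called, and its SJY change turned to 0.046 with libraries rescaled by the median of ratios. Col4a1 stood at 1.68 to 2.41 times Col4a2 in SJY libraries, 1.56 to 1.84 times in ALI libraries and 1.24 to 1.56 times in control libraries.

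Col4a3, Col4a4 and Col4a5 together form the network of the alveolar and glomerular basement membranes, and in humans they are the genes mutated in Alport syndrome. Col4a3 (ENSRNOG00000015365) had 1.69, 6.66, 3.89, 7.04 and 6.53 FPKM in SJY libraries, 0.579, 6.99, 4.87, 7.03 and 10.00 FPKM in ALI libraries and 12.1, 25.6, 21.1, 19.9 and 19.98 FPKM in control libraries. All SJY and ALI libraries lay below the lowest control library. The log2 fold change was −1.82 (SE 0.44, adjusted p = 0.00592) in SJY and −1.80 (SE 0.44, adjusted p = 0.0117) in ALI lungs, and −1.33 in ALI without ALI 1. Both calls held when any 1 library was left out.

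Col4a4 (ENSRNOG00000014851) had 20.2, 27.3, 20.1, 29.6 and 26.4 FPKM in SJY libraries, 3.46, 31.8, 18.98, 33.2 and 36.7 FPKM in ALI libraries and 44.2, 56.1, 55.5, 50.2 and 55.96 FPKM in control libraries. Its SJY and ALI libraries again all lay below the control libraries. Against control, the log2 fold change was −1.06 (SE 0.43, adjusted p = 0.0669) in SJY and −1.36 (SE 0.43, adjusted p = 0.0383) in ALI lungs, and −0.81 in ALI without ALI 1. The ALI call was lost without ALI 3 or any 1 of control 5 to 8 (−1.38 to −1.34, adjusted p 0.0637 to 0.0775). The SJY change was called, at the same fold change, when ALI 1 was left out of the fit.

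Col4a5 had 14.3, 10.8, 13.4, 12.9 and 9.49 FPKM in SJY libraries, 2.29, 16.4, 9.88, 11.9 and 20.05 FPKM in ALI libraries and 15.96, 18.8, 26.4, 22.3 and 20.8 FPKM in control libraries. All SJY libraries lay below all control libraries, whereas ALI 2 (16.4 FPKM) and ALI 5 (20.05 FPKM) lay within the control range. This was a log2 fold change of −0.72 (SE 0.36, adjusted p = 0.135) in SJY and −0.96 (SE 0.36, adjusted p = 0.076) in ALI lungs, and neither passed the test. It was called in ALI without ALI 5 (−1.19) and in SJY, at the same fold change, without ALI 1. Col4a6, which joins Col4a5 in basement membranes of airways and smooth muscle, was low throughout, at 0.751, 1.72, 1.601, 2.397 and 1.24 FPKM in SJY libraries, 0.181, 2.87, 1.14, 1.23 and 3.65 FPKM in ALI libraries and 2.48, 2.31, 5.22, 3.81 and 3.78 FPKM in control libraries. Its groups overlapped, and its log2 fold change was −0.83 (SE 0.32, adjusted p = 0.0561) in SJY and −0.80 (SE 0.32, adjusted p = 0.0863) in ALI lungs. It was called in ALI without ALI 5 (−1.02), and in SJY without ALI 1, ALI 5 or SJY 5 (−0.94 to −0.83).

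Set against each other within a library, the alveolar chains gave a ratio that does not depend on library scaling. Col4a3, Col4a4 and Col4a5 together came to 18.6 ± 1.07% of Col4a1 plus Col4a2 in SJY lungs, 12.8 ± 5.37% in ALI lungs (15.1 ± 1.42% without ALI 1) and 49.4 ± 7.37% in control lungs. The highest SJY or ALI value, 20.1%, was below the lowest control value, 38.7%.

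The falls with the largest fold changes were in type VI collagen, whose beaded filaments link basement membranes to the interstitium. Its core chains were not called. Col6a1 had 77.5, 114, 99.7, 111 and 101 FPKM in SJY libraries, 17.3, 147, 119, 151 and 155 FPKM in ALI libraries and 102, 148, 131, 120.2 and 104 FPKM in control libraries. Col6a2 had 79.99, 117, 90.9, 99.9 and 106 FPKM in SJY libraries, 21.4, 117, 109, 124 and 120.1 FPKM in ALI libraries and 106, 154, 119.9, 113 and 79.3 FPKM in control libraries. Except for ALI 1, the SJY and ALI ranges of both genes overlapped the control range. For Col6a1, ALI 2 to 5 all lay above every SJY library, whereas for Col6a2 these groups overlapped. The log2 fold change of Col6a1 was −0.26 (SE 0.44, adjusted p = 0.681) in SJY and −0.35 (SE 0.44, adjusted p = 0.593) in ALI lungs, and that of Col6a2 was −0.19 (SE 0.37, adjusted p = 0.725) in SJY and −0.41 (SE 0.37, adjusted p = 0.442) in ALI lungs. Without ALI 1 the ALI changes turned positive, at 0.24 for Col6a1 and 0.07 for Col6a2.

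Col6a4, Col6a5 and Col6a6, chains that can take the place of Col6a3 beside the core pair, are neighbours on chromosome 8 in GRCr8. Col6a5 (ENSRNOG00000010663) had 3.64, 5.05, 2.85, 7.07 and 4.51 FPKM in SJY libraries, 0.994, 7.13, 4.59, 8.46 and 9.397 FPKM in ALI libraries and 18.8, 25.6, 33.1, 28.9 and 27.8 FPKM in control libraries. The highest SJY or ALI library, ALI 5 with 9.40 FPKM, lay far below the lowest control library, with 18.8 FPKM. On the log2 scale the change was −2.33 (SE 0.36, adjusted p = 3.01e-04) in SJY and −2.15 (SE 0.36, adjusted p = 0.00103) in ALI lungs, and −1.74 in ALI without ALI 1. Col6a4 (ENSRNOG00000031782) had 1.04, 1.89, 0.784, 1.79 and 0.363 FPKM in SJY libraries, 0.0352, 4.02, 1.09, 0.529 and 0.7696 FPKM in ALI libraries and 4.09, 6.56, 9.29, 7.31 and 6.07 FPKM in control libraries. The groups did not overlap, although ALI 2, at 4.02 FPKM, came close to control 4, at 4.09 FPKM. The log2 fold change was −1.84 (SE 0.34, adjusted p = 0.00124) in SJY and −1.93 (SE 0.34, adjusted p = 0.00165) in ALI lungs, and −1.69 in ALI without ALI 1. The calls of Col6a4 and Col6a5 held when any 1 library was left out. Col6a6 averaged 4.79 ± 2.08 FPKM in SJY, 5.24 ± 3.77 FPKM in ALI and 7.61 ± 0.322 FPKM in control lungs and was not called, although its SJY libraries all lay below its control libraries.

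Of the FACIT collagens, which bind to fibril surfaces, Col12a1 was lower in SJY and ALI lungs and Col20a1 in ALI lungs. Col12a1 (ENSRNOG00000058470), which bridges fibrils in tissue under tension, had 6.63, 6.36, 7.097, 7.76 and 5.43 FPKM in SJY libraries, 7.46, 9.03, 7.43, 8.86 and 9.81 FPKM in ALI libraries and 15.3, 18.5, 25.6, 21.7 and 26.2 FPKM in control libraries. All SJY and ALI libraries lay below the lowest control library, and ALI 1 did not stand apart from its group. Against control, the log2 fold change was −1.53 (SE 0.15, adjusted p = 3.95e-06) in SJY and −1.22 (SE 0.15, adjusted p = 7.48e-05) in ALI lungs, the lowest adjusted p of any collagen in either comparison, and both calls held when any 1 library was left out. Col20a1 (ENSRNOG00000010326) had 1.56, 1.82, 2.12, 2.296 and 2.603 FPKM in SJY libraries, 0.206, 1.92, 3.13, 1.57 and 1.91 FPKM in ALI libraries and 3.72, 3.85, 2.92, 3.15 and 2.85 FPKM in control libraries. Its SJY libraries all lay below the control libraries, and ALI 3 lay inside the control range. This was a log2 fold change of −0.48 (SE 0.25, adjusted p = 0.142) in SJY and −0.75 (SE 0.25, adjusted p = 0.0472) in ALI lungs. Of single libraries left out, ALI 3, ALI 5 and SJY 1 kept its ALI call. Without any other 1 library it was lost (−0.79 to −0.48, adjusted p 0.0534 to 0.1002), and the SJY change was called, at the same fold change, without ALI 1. Col16a1, Col14a1 and Col9a2, the remaining tested FACIT chains, were not called, at 30.9 ± 7.201 FPKM in SJY, 23.8 ± 13.8 FPKM in ALI and 33.2 ± 6.75 FPKM in control lungs for Col16a1 and group means under 5 FPKM for the other two.

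Col13a1 (ENSRNOG00000000552), a collagen that spans the cell membrane at adhesion sites, had 24.9, 24.3, 21.6, 30.4 and 20.1 FPKM in SJY libraries, 5.65, 28.9, 20.2, 30.5 and 33.9 FPKM in ALI libraries and 41.7, 64.9, 54.1, 43.4 and 38.2 FPKM in control libraries. All SJY and ALI libraries lay below all control libraries. On the log2 scale the change was −0.95 (SE 0.34, adjusted p = 0.044) in SJY and −1.17 (SE 0.34, adjusted p = 0.029) in ALI lungs, and −0.75 in ALI without ALI 1. The ALI call was lost without ALI 3 or control 5, 6 or 7 (−1.21 to −1.06, adjusted p 0.0506 to 0.0747). The SJY call was lost without ALI 3, SJY 1, 3, 4 or 6 or any 1 control library (−1.03 to −0.84, adjusted p 0.0519 to 0.102). Col8a2 (ENSRNOG00000010841), a short chain of the hexagonal network beneath endothelium, had 1.302, 1.18, 0.869, 1.37 and 0.583 FPKM in SJY libraries, 0.195, 1.601, 1.59, 0.868 and 1.399 FPKM in ALI libraries and 2.78, 4.26, 3.39, 2.05 and 2.46 FPKM in control libraries. Its SJY and ALI libraries too all lay below its control libraries. The log2 fold change was −0.94 (SE 0.22, adjusted p = 0.00521) in SJY and −0.94 (SE 0.22, adjusted p = 0.0101) in ALI lungs, and both calls held when any 1 library was left out.

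Col18a1, a basement membrane collagen whose end fragment is endostatin, had 20.9, 16.9, 19.5, 19.8 and 18.1 FPKM in SJY libraries, 6.82, 22.3, 23.7, 24.8 and 26.6 FPKM in ALI libraries and 11.6, 17.96, 16.3, 13.2 and 11.1 FPKM in control libraries. ALI 2 to 5 lay above every control library and ALI 1 below every one. Against control, the log2 fold change was 0.44 (SE 0.27, adjusted p = 0.236) in SJY and 0.44 (SE 0.27, adjusted p = 0.261) in ALI lungs, and neither was called. With ALI 1 left out of the fit both were, at 0.44 in SJY and 0.78 in ALI lungs. Col7a1 of anchoring fibrils, the short chain Col8a1 and the membrane-spanning Col17a1 of epithelium were low and not called with all libraries. Col7a1 averaged 3.99 ± 1.501 FPKM in SJY, 4.24 ± 2.55 FPKM in ALI and 6.81 ± 1.92 FPKM in control lungs, and it was called lower in SJY lungs without ALI 1 (−0.68). Col8a1 averaged 0.709 ± 0.328 FPKM in SJY, 1.46 ± 0.784 FPKM in ALI and 1.71 ± 0.668 FPKM in control lungs, and it was called lower in SJY lungs without ALI 1 (−0.64) or without control 4. Col17a1 averaged 2.44 ± 0.543 FPKM in SJY, 2.88 ± 1.95 FPKM in ALI and 3.19 ± 0.608 FPKM in control lungs.

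Whether the formula altered collagen transcripts after LPS was asked by setting SJY against ALI lungs. By limma, 0 of the 29 collagens were called in either direction. At an unadjusted p under 0.05, 1 (Col4a2) was lower and 0 were higher, where 5.17% of all genes were lower and 6.62% higher. Among all 13457 genes 1 was called higher, 0.00743%, and none lower, 0%. For none of the 29 did the SJY and ALI libraries separate, whereas SJY lay wholly above ALI for 2.24% of all genes and wholly below for 0.988%. The fold changes ran from −0.53 for Col4a2 (95% interval −1.04 to −0.02, adjusted p = 0.405) to 0.68 for Col16a1 (−0.29 to 1.66), on the log2 scale. The 95% intervals were 0.64 to 1.97 wide, so a missed call does not show that a level was alike in SJY and ALI lungs.

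ALI 1 weighed on this comparison. With it left out, Col1a1 was called lower in SJY lungs, the only collagen called, beside 0.461% of all genes called lower and 0.885% called higher. Col1a1 then averaged 56.04 ± 8.65 FPKM in SJY lungs (n = 5) and 102 ± 4.17 FPKM in ALI lungs (n = 4), and every remaining ALI library was above every SJY library. The same held for Col3a1, Col5a1, Col6a1, Col8a1 and Col18a1, none of them called. The share of all genes that separate without ALI 1 was not counted, so these separations cannot be read as particular to collagens. ALI 1 was the lowest ALI library in 28 of the 29, so leaving it out makes such separation easier. The log2 fold change of Col1a1 was −0.87 without ALI 1 (adjusted p = 0.0267) and −0.31 with it (interval −1.22 to 0.60). Its adjusted p ran from 0.0267 to 0.926 over the 15 single libraries left out. Without both ALI 1 and SJY 1, an alternative added after seeing the data, Col1a1 had a log2 fold change of −0.89 with an adjusted p of 0.0544, and no collagen was called. With all libraries 15 of the 29 fold changes were negative, beside 6073 of all 13457 genes. Without ALI 1, 26 of the 29 were negative, and the median was −0.36, beside −0.08 for all genes. With a negative median, most of all genes were negative too, but their number without ALI 1 was not counted. The 26 therefore have no matching share of all genes. Col3a1 was then −0.52, Col4a1 −0.48, Col4a2 −0.72 and Col12a1 −0.35, none of them called.

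**Figure D4:**
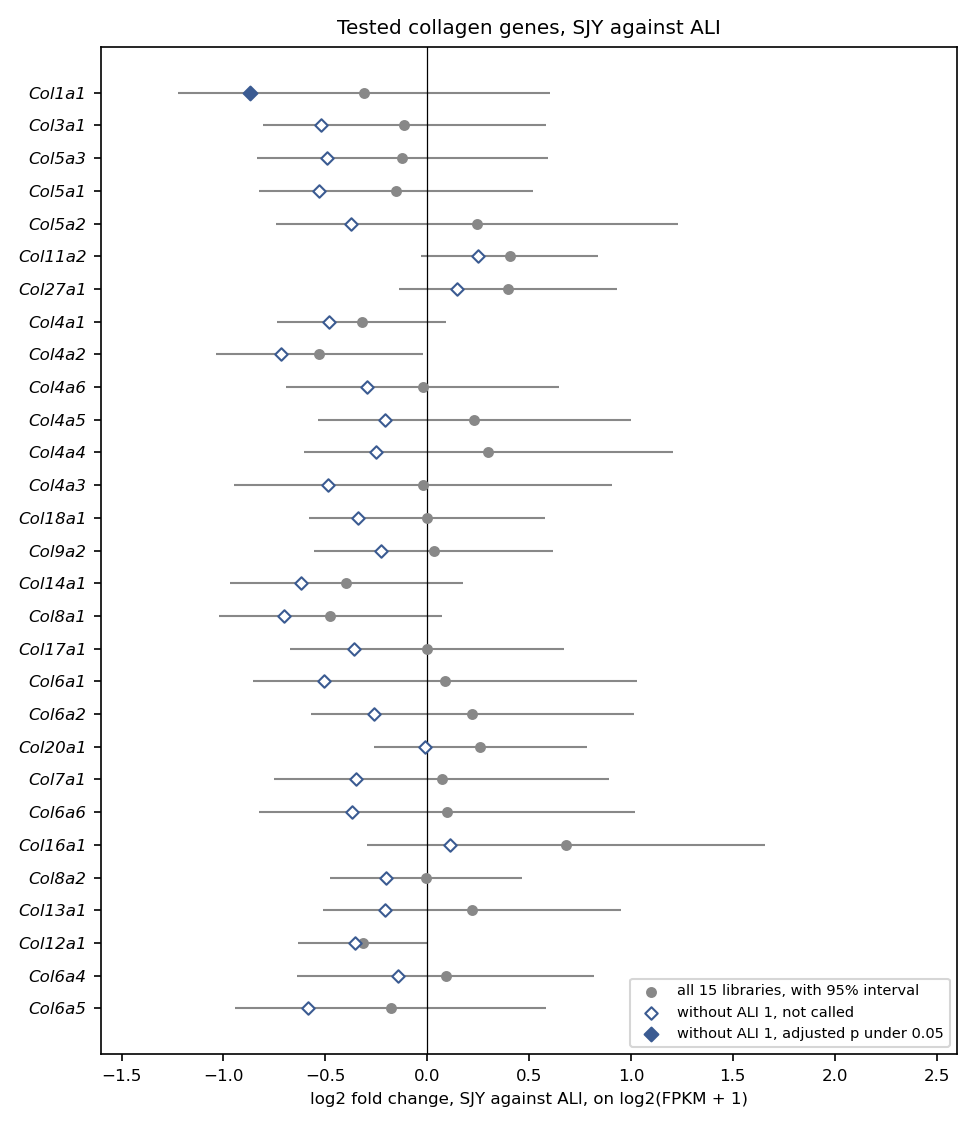
log2 fold change of SJY against ALI lungs on the log2(FPKM + 1) scale (x axis) for the 29 tested collagens (rows), with all 15 libraries (grey, 95% intervals) and without ALI 1 (diamonds, filled where the adjusted p was under 0.05). With all libraries the values lie from −0.53 to 0.68 and none was called, and without ALI 1 only Col1a1, at −0.87, was.

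Genes of the collagen pathway were described by the same calls, and their lists, like the members, were drawn up with results of these libraries known. Of 18 tested genes that modify and fold collagen chains, 3 were higher and 1 lower in ALI lungs and 2 were higher and 2 lower in SJY lungs, against control, with list medians of −0.04 in SJY and −0.09 in ALI. Across all genes 8.02% were called higher and 9.56% lower in ALI lungs, and 14.6% and 18.1% in SJY lungs. With ALI 1 left out, the ALI median turned to 0.17 and Fkbp10 was also higher in ALI lungs (0.55). In SJY lungs P4hb was then also higher (0.34), and P4ha1 (−0.54), Fkbp14 (−0.47) and Colgalt2 (−0.70) were also lower. That made 3 of the 18 higher and 5 lower there, where 17.8% of all genes were called higher and 26.5% lower. Plod2, a lysyl hydroxylase that prepares cross-link sites, averaged 15.6 ± 1.04 FPKM in SJY, 16.2 ± 3.94 FPKM in ALI and 9.93 ± 2.16 FPKM in control lungs, a log2 fold change of 0.62 (SE 0.17, adjusted p = 0.0126) in SJY and 0.64 (SE 0.17, adjusted p = 0.0195) in ALI. Ppib, a proline isomerase of the folding complex, had 0.72 (SE 0.12, adjusted p = 4.80e-04) in SJY and 0.55 (SE 0.12, adjusted p = 0.00547) in ALI lungs. P4hb, a subunit of prolyl 4-hydroxylase, was called in ALI lungs at 0.49 (SE 0.13, adjusted p = 0.0207). P3h2, a prolyl 3-hydroxylase known to act on type IV collagen, fell to 5.57 ± 0.946 FPKM in SJY lungs and 6.73 ± 3.83 FPKM in ALI lungs, against 16.4 ± 3.17 FPKM in control lungs. Its log2 fold change was −1.40 (SE 0.32, adjusted p = 0.00479) in SJY and −1.34 (SE 0.32, adjusted p = 0.0113) in ALI. Tmem38b, an endoplasmic reticulum channel that collagen processing needs, was lower in SJY lungs (log2 fold change −0.43, SE 0.14, adjusted p = 0.0303). The ALI call of Plod2 was lost without control 5, 7 or 8 (0.59, adjusted p 0.0518 to 0.0537), and the SJY call of Tmem38b without SJY 3, 4 or 5 or control 5 to 8 (−0.42 to −0.39, adjusted p 0.057 to 0.0723). P4hb was called in SJY lungs too without ALI 1, ALI 4 or SJY 1 (0.34 to 0.42), and Tmem38b in ALI lungs without ALI 4 or control 4 (−0.47 to −0.43).

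Of 14 genes of propeptide cleavage, fibril assembly and cross-linking, 3 were higher and 1 lower in ALI lungs and 4 were higher and 4 lower in SJY lungs, with list medians of 0.21 in SJY and 0.11 in ALI (0.34 in ALI without ALI 1). The shares of all genes were 8.02% higher and 9.56% lower in ALI lungs, and 14.6% and 18.1% in SJY lungs. Dcn, the small proteoglycan decorin that coats fibrils, averaged 184 ± 22.1 FPKM in SJY, 185 ± 40.1 FPKM in ALI and 49.7 ± 7.06 FPKM in control lungs, a log2 fold change of 1.87 (SE 0.16, adjusted p = 1.04e-06) in SJY and 1.86 (SE 0.16, adjusted p = 3.19e-06) in ALI. Lox, the lysyl oxidase that cross-links fibrils, averaged 29.7 ± 5.44 FPKM in SJY, 47.2 ± 9.04 FPKM in ALI and 16.4 ± 2.86 FPKM in control lungs, with 0.81 (SE 0.17, adjusted p = 0.00235) in SJY and 1.46 (SE 0.17, adjusted p = 4.28e-05) in ALI. Its relative Loxl1, which acts mostly on elastin, had 1.31 (SE 0.38, adjusted p = 0.0166) in SJY and 1.28 (SE 0.38, adjusted p = 0.0307) in ALI. Bmp1, which removes the C-terminal propeptide of fibrillar procollagens, fell to 92.3 ± 24.8 FPKM in SJY lungs and 78.6 ± 32.4 FPKM in ALI lungs, against 174 ± 31.3 FPKM in control lungs, with −0.93 (SE 0.33, adjusted p = 0.0417) in SJY and −1.28 (SE 0.33, adjusted p = 0.0156) in ALI. The other calls were in SJY lungs. Adamts3, which removes N-terminal propeptides, was higher (log2 fold change 0.80, SE 0.24, adjusted p = 0.0195). Fmod, the fibril-binding fibromodulin, was lower (log2 fold change −1.35, SE 0.32, adjusted p = 0.00582), as were Pxdn, which cross-links type IV collagen (log2 fold change −1.19, SE 0.30, adjusted p = 0.00732), and the lysyl oxidase relative Loxl4 (log2 fold change −0.63, SE 0.20, adjusted p = 0.0274). Of the calls in this list, Loxl1 in ALI was lost without any 1 of ALI 2 to 5 or control 5, 7 or 8 (1.0998 to 1.31, adjusted p 0.053 to 0.0736). Bmp1 in SJY was lost without SJY 1, 4 or 5 or control 4, 5, 7 or 8 (−0.99 to −0.81, adjusted p 0.0582 to 0.101), Loxl4 in SJY without SJY 1 or 4 or control 5 to 8 (−0.62 to −0.55, adjusted p 0.0516 to 0.0714), and Adamts3 in SJY without SJY 3 (0.68). Adamts3 was called in ALI lungs without SJY 1 (0.56), and Fmod without ALI 4 or ALI 5 (−1.13 to −1.10). Pcolce, which speeds the removal of C-terminal propeptides, was not called with all libraries and was called higher in both comparisons without ALI 1 (0.79 in SJY and 0.96 in ALI).

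Of 7 collagen receptor genes tested, 0 were called in ALI lungs. At an unadjusted p under 0.05, 3 were lower and 0 higher there, where 21.2% of all genes were lower and 13.9% higher. List medians were −0.67 in SJY and −0.34 in ALI (−0.20 in ALI without ALI 1). In SJY lungs 4 receptor genes were called lower, where 18.1% of all genes were. These were Itga1 (log2 fold change −1.52, SE 0.32, adjusted p = 0.00256) and Itgb1 (log2 fold change −0.46, SE 0.16, adjusted p = 0.0375), the chains of a collagen-binding integrin, Mrc2, which takes up collagen for breakdown (log2 fold change −0.96, SE 0.35, adjusted p = 0.044), and the receptor kinase Ddr1 (log2 fold change −0.51, SE 0.16, adjusted p = 0.022). The call of Itgb1 was lost without SJY 1, 3, 4 or 6 or control 6, 7 or 8 (−0.48 to −0.41), that of Ddr1 without SJY 6 or control 5 (−0.47 to −0.45), and that of Mrc2 without ALI 3 or any 1 SJY or control library (−1.04 to −0.87). In ALI lungs Itga1 was called without ALI 5 or control 4 (−1.05 to −0.95), and Mrc2 without ALI 1 or ALI 5 (−1.13 to −0.51). The receptor kinase Ddr2 was also lower in SJY lungs without ALI 1 (−0.75).

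Of 7 collagen-degrading genes tested, 4 were higher in ALI lungs and 3 in SJY lungs, with list medians of 0.46 in SJY and 0.73 in ALI (0.87 in ALI without ALI 1). Across all genes 8.02% were called higher in ALI and 14.6% in SJY lungs. The gelatinase Mmp2 was also higher in ALI lungs without ALI 1 (0.73). Mmp8, the collagenase of neutrophils, averaged 177 ± 41.1 FPKM in SJY, 117 ± 103 FPKM in ALI and 1.97 ± 0.584 FPKM in control lungs, and it was also in the neutrophil list. Mmp9, a gelatinase of neutrophils and macrophages, averaged 26.7 ± 4.71 FPKM in SJY, 18.2 ± 11.1 FPKM in ALI and 0.7199 ± 0.382 FPKM in control lungs. Ctsl, a lysosomal protease, had 1.27 (SE 0.17, adjusted p = 1.07e-04) in SJY and 0.73 (SE 0.17, adjusted p = 0.0106) in ALI. Mmp14, the membrane-bound collagenase, was called in ALI lungs (log2 fold change 1.10, SE 0.24, adjusted p = 0.00694). In SJY lungs Mmp14 had 0.46 and was not called, whereas it was called without SJY 1 (0.73), with array weights (0.55) and with median-of-ratios scaling (0.58). In none of these 4 lists was a gene called with all libraries between SJY and ALI lungs. At an unadjusted p under 0.05 the lists held 3 higher and 4 lower genes in all, where 6.62% of all genes were higher and 5.17% lower. Without ALI 1, Lox was called lower in SJY than in ALI lungs (−0.78), and Mmp8 (1.38) and Mmp9 (0.97) higher. Across all genes 0.461% were then called lower and 0.885% higher.

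Marker genes of lung cell types were described by the same calls against control. Across all genes 8.02% were called higher and 9.56% lower in ALI lungs, and 14.6% and 18.1% in SJY lungs. Without ALI 1 these shares were 9.11% and 7.89% in ALI lungs, and 17.8% and 26.5% in SJY lungs. Small counts in a marker list have to be read beside them. All 7 markers of alveolar type I cells, the flat epithelium that lies on the alveolar basement membrane, were lower in ALI lungs and 5 of 7 were lower in SJY lungs, or 7 of 7 without ALI 1, which added Ager and Aqp5. Their summed level was 1369 to 2234 FPKM in SJY libraries, 549 to 1756 FPKM in ALI libraries and 2634 to 3669 FPKM in control libraries. Of 8 fibroblast markers, 1 (Dpt) was lower in ALI and 3 (Dpt, Npnt and Thy1) were lower in SJY lungs, with sums of 316 to 361 FPKM in SJY, 169 to 423 FPKM in ALI and 351 to 437 FPKM in control libraries. The ALI call of Dpt was lost without ALI 1 (−0.41), where Pdgfrb was called higher in ALI lungs (0.56). Of 6 endothelial markers tested, 1 (Emcn) was higher and 1 (Kdr) lower in both SJY and ALI lungs, with sums of 368 to 471 FPKM in SJY, 233 to 548 FPKM in ALI and 384 to 527 FPKM in control libraries, and Cldn5 was listed at 0 in every library. Without ALI 1, Ca4 was also lower in ALI lungs (−0.53), and Ednrb (−0.89) and Vwf (−0.70) were also lower in SJY lungs. No smooth muscle and pericyte marker of 7 was called in either comparison with all libraries, and Myh11 was called lower in SJY lungs without ALI 1 (−0.54), with sums of 495 to 725 FPKM in SJY, 191 to 707 FPKM in ALI and 458 to 827 FPKM in control libraries.

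Of 6 alveolar type II cell markers, 2 were lower in ALI and 3 in SJY lungs, with sums of 13745 to 15986 FPKM in SJY, 3966 to 16329 FPKM in ALI and 13173 to 20834 FPKM in control libraries. The shares of all genes were 8.02% higher and 9.56% lower in ALI lungs, and 14.6% and 18.1% in SJY lungs. All 7 neutrophil markers were higher in SJY and ALI lungs, with sums of 6898 to 11843 FPKM in SJY, 1267 to 15827 FPKM in ALI and 45.4 to 88.9 FPKM in control libraries. Without ALI 1, the ALI sums reached 4463 FPKM, below every SJY library. In the direct comparison without it, 6 of the 7 were called higher in SJY than in ALI lungs, against 0 with all libraries. Across all genes 0.885% were then called higher and 0.461% lower. Of 4 mesothelial markers tested, 1 (Krt19) was lower in both SJY and ALI lungs against control, with sums of 54.02 to 90.5 FPKM in SJY, 38.01 to 158 FPKM in ALI and 141 to 163 FPKM in control libraries. None of 3 heart and skeletal muscle markers tested was called, with sums of 13.2 to 31.5 FPKM in SJY, 2.001 to 34.4 FPKM in ALI and 13.8 to 32.6 FPKM in control libraries. None of 8 cartilage markers was high enough to test. They summed to 1.06 to 2.20 FPKM in SJY, 1.09 to 2.16 FPKM in ALI and 1.99 to 3.799 FPKM in control libraries, and Acan, Matn1 and Hapln1 did not exceed 0.1202 FPKM in any library. The part of these cell types in the collagen values was not tested.

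**Figure D5:**
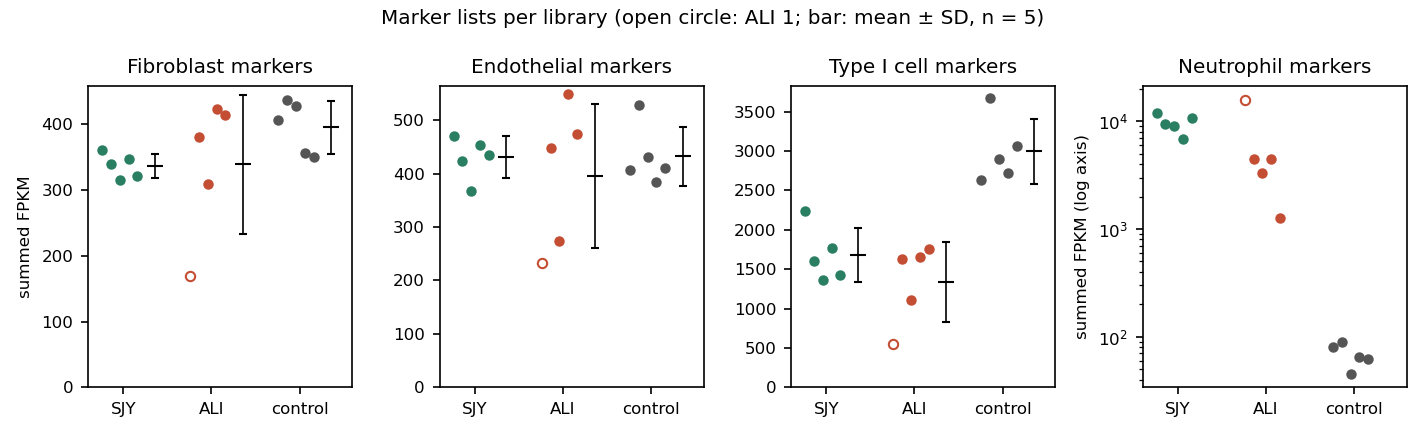
Summed FPKM (y axis) of the fibroblast, endothelial, alveolar type I cell and neutrophil markers in each library, with mean ± SD (n = 5) except on the logarithmic neutrophil axis and ALI 1 as an open circle. Type I cell markers lie at 1369 to 2234 FPKM in SJY and 549 to 1756 FPKM in ALI libraries, below the 2634 to 3669 FPKM of control libraries.

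The 13 members that were not tested were near the floor of the table. For 12 of them no library reached 1 FPKM, and Col9a3 did so in 1 library, ALI 3, at 2.37 FPKM. Col14a1, the member that passed the filter most narrowly, reached 1 FPKM in 5 libraries. Col15a1, a basement membrane collagen of capillaries, had the highest value of the 12, with 0.178, 0.3096, 0.463, 0.0284 and 0.243 FPKM in SJY libraries, 0.129, 0.647, 0.641, 0.701 and 0.701 FPKM in ALI libraries and 0.302, 0.834, 0.586, 0.334 and 0.158 FPKM in control libraries, and its groups overlapped. The cartilage chains Col9a1, Col2a1 and Col11a1 were among the lowest. Col27a1, also known from cartilage, and the type IX and XI chains Col9a2 and Col11a2 each reached 1 FPKM in 14 libraries and were tested. Col9a1 was listed at 0 in 14 of 15 libraries and Col2a1 in 8, the highest Col2a1 value being 0.05003 FPKM in ALI 3, and Col11a1 did not exceed 0.0853 FPKM. Col24a1, Col10a1, Col19a1, Col22a1, Col23a1, Col25a1, Col26a1 and Col28a1 reached at most 0.699 FPKM, in Col24a1 of control 5.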

How the data were processed

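RNA of 15 rat lung samples was sequenced after a NEBNext Ultra library preparation, per the labels' protocols, in 3 groups of 5. The values are FPKM per gene as deposited by the authors. Tools listed, without versions, per the submitters' processing notes, were StringTie, HISAT2 and cutadapt, and the build was Rnor_6.0. FPKM tables give no read numbers, so depth and counting error are unknown.

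Genes with at least 1 FPKM in at least 5 libraries were tested on log2(FPKM + 1) with limma 3.58.1 in R 4.3.3 (trended, robust, all 3 groups in 1 fit, two-sided), with Benjamini-Hochberg adjustment over all tested genes. Fold changes on this scale understate those of low genes. Tests were checked on simulated data with independent noise in each gene and no outlying library. That check cannot speak for data that hold a library such as ALI 1. Rescaling by the median of ratios moves the median change of all genes from −0.12 to 0.00 in ALI and from −0.11 to −0.00 in SJY lungs, against control. Full values are given for called collagens and a set list of major chains, and for up to 4 called genes per direction in each pathway list; Pcolce was named after its values were seen. Members and lists were chosen with earlier results of these data known. Mia3, Pcolce2, Pepd and Pecam1 of the lists had no row under those names, and Crtap was left out because a related symbol stands on 2 rows. Promoter windows were RefSeq GRCr8, found for 33 of 42 members. No 2 libraries were identical.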

Additional observations from a re-analysis of the deposited data

Results flagged for a closer look

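In each group of 5 libraries, the lowest or highest library was set against its nearest neighbour by Dixon's test for each of the 29 tested collagens. Of 87 such checks 10 passed the critical value of 0.71, where chance flags about 1 in 20, and the checks share their libraries. In 9 of the 10 the library standing apart was ALI 1, always as the lowest of its group. It had 13.9 FPKM of Col1a1, next to 97.5 FPKM in the nearest ALI library, and 80.9 FPKM of Col3a1, next to 276 FPKM. For the type V chains it had 3.51 FPKM of Col5a1, next to 13.2 FPKM, and 6.29 FPKM of Col5a2, next to 42.4 FPKM. Of the core type VI chains it had 17.3 FPKM of Col6a1, next to 119 FPKM, and 21.4 FPKM of Col6a2, next to 109 FPKM. It also had 0.649 FPKM of Col11a2, next to 1.56 FPKM, 0.467 FPKM of Col27a1, next to 2.14 FPKM, and 6.82 FPKM of Col18a1, next to 22.3 FPKM. The remaining flag was Col4a2 in SJY 1, at 57.7 FPKM, next to 78.0 FPKM in the nearest SJY library. ALI 1 also had the highest mitochondrial share, 37.7% of FPKM, and the highest neutrophil marker sum, 15827 FPKM. The part of these in its low collagen values was not tested.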

How the results depend on the processing

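Counts are of collagens called higher and lower, and the cause of each shift was not tested. In ALI against control lungs (3 higher, 9 lower), the number higher was 1 with only these 2 groups in the fit, 6 with array weights and 0 with a replicate block. The number lower was 5 among genes averaging at least 5 FPKM (fewer collagens tested) and 1 with the block. In SJY against control lungs (2 higher, 6 lower), higher were 1 without a filter, 4 with only the 2 groups, 5 with array weights and 0 with the block. Lower were 10 with equal sums outside mitochondrial genes, 14 with only the 2 groups and 13 with array weights. All genes called moved too: of the 1959 higher and 2431 lower in SJY against control, array weights gave 3344 and 4310, the fit of only the 2 groups 2366 and 3487, the block 743 and 399, and no filter 1811 and 2171. In ALI against control the 1079 higher and 1287 lower became 1843 and 2116, 723 and 609, 244 and 69, and 932 and 863 under the same settings. In SJY against ALI lungs 3 were lower with array weights (Col1a1, Col4a2 and Col8a1). Of all genes 297 were then higher and 181 lower, against 1 and 0 in the main fit. The labels do not say whether equal replicate numbers pair libraries, and the block uses only a shared number. The 9 same-numbered pairs correlated at −0.389 to 0.302. Differently numbered pairs were not set beside them, so these values cannot decide whether the numbers pair libraries.

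Leaving out 1 library gave 2 to 6 higher and 6 to 11 lower in ALI, 1 to 4 higher and 5 to 13 lower in SJY against control, and 0 to 1 lower in SJY against ALI. All genes called moved in the same fits. They ran from 823 to 1251 higher and 700 to 1736 lower in ALI against control. In SJY against control they ran from 1609 to 2391 higher and 1710 to 3562 lower. In SJY against ALI they reached 119 higher and 62 lower, without ALI 1. Without both ALI 1 and SJY 1, 5 were higher and 12 lower in SJY against control, beside 2511 and 3095 of all 13420 genes tested. In ALI against control 6 were then higher and 9 lower, beside 1448 and 1405 of all genes. Some uncalled fold changes changed sign. Col4a2 in SJY against control was 0.046 with median-of-ratios scaling, 0.10 with the replicate block and −0.21 to 0.062 on leaving out a library. With the block, Col5a2 was 0.068 and Col6a1 0.003 in SJY against control. Col3a1 in SJY against ALI was 0.034 with the block and −0.56 to 0.0193 on leaving out libraries. In ALI against control array weights gave 0.24 for Col5a1, 0.16 for Col5a2, 0.21 for Col6a1 and 0.067 for Col6a2, and leaving out a library gave −0.29 to 0.21, −0.73 to 0.11, −0.53 to 0.24 and −0.55 to 0.0695 for the same genes in that order. A pseudocount of 0.1 and limma without its trend and robust settings kept all counts within 1.5 times.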
